A study of Saccharomyces cerevisiae with 12 samples.

Results

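The transcripts described here are those of the 6 subunits of the origin recognition complex, ORC1 to ORC6, and of the proteins that act with it to load the replicative helicase, CDC6 and TAH11. TAH11 is the standard name of the gene that encodes yeast Cdt1. These 8 genes were chosen by name from 6412 genes and other features listed in each sample, and all 8 passed the filter on low counts. Polyadenylated RNA of budding yeast was sequenced from 12 samples that form 3 groups of 4 replicates, CDK/DDK bypass G1, wild-type G1 and wild-type S cells. CDK/DDK bypass G1 cells (strain YKR1503) carried Dpb11, the allele sld2-T84D and Dbf4 under the galactose-inducible pGAL1-10 promoter, which induces replication in arrested G1 cells. Dpb11 and sld2-T84D stand in for the control by CDK, and Dbf4 is the regulatory subunit of the kinase DDK. Wild-type G1 cells (strain YKR1500) went through the same treatment and served as the control, and wild-type S cells (strain E3087) passed through a regular S phase. All 3 groups were grown at 30 °C in YP medium that contained raffinose (2%) and adenine (0.25 mM), and were arrested with the mating pheromone α-factor for 2.5 h. Both G1 groups were then kept arrested for 3 h with 2% galactose, whereas S cells were washed into fresh medium and collected 30 min later. Each group has its own strain, and the S group also differs from both G1 groups in its time course, so that strain, cell cycle phase and time cannot be told apart. The bypass cells overexpress their 3 proteins from a strong promoter, so that they are a model of induced replication and not of a natural G1. Nothing in the labels says that the replicates of a group were separate cultures, and the p-values measure only the spread between these samples.

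ORC is a ring-shaped ATPase that stays bound to replication origins through most of the yeast cell cycle. In G1, when CDK activity is low, Cdc6 closes the ring and Cdt1 brings in the Mcm helicase, which is loaded around DNA as an inactive double hexamer, a step called licensing. In S phase CDK blocks any further licensing by phosphorylating ORC subunits and the Mcm proteins, by sending Cdt1 and Mcm proteins out of the nucleus and by marking Cdc6 for destruction by the ubiquitin ligase SCF-Cdc4. Firing of the licensed origins needs Sld2, Dpb11 and Dbf4, which are the factors that the bypass supplies.

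The samples held 8162140 to 10545835 counts on genes, and the induced factors were high where the labels say so, with 2251 CPM of DPB11 in the bypass against 42.9 in wild-type G1, 3397 against 35.8 for SLD2 and 900.1 against 100.5 for DBF4. CPM are counts scaled to the TMM-normalized library size. The pheromone-induced gene FUS1 stood at 1948, 1520 and 20.1 CPM in bypass G1, wild-type G1 and wild-type S, and RNR1, a gene of the G1/S transition, at 86.7, 56.6 and 922.4 CPM. GAL1 was high in all 3 groups, at 10650, 9227 and 9729 CPM, although the labels name raffinose but no galactose for the S samples. Within each group, replicates 1 and 2 were alike and so were replicates 3 and 4: the mean chi-square per gene was 1.48 to 2.41 within these pairs and 2.98 to 45.7 between them, highest between the pairs of wild-type G1. For the bypass against wild-type G1, the member still called with counts summed within the pairs is named below. Values from summed counts or from 1 pair alone are given for some members and not for all.

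The 8 genes lie at separate places in the genome (R64 assembly, which is sacCer3). ORC1 (YML065W) occupies chr13:142210-144954 on the forward strand, ORC2 (YBR060C) chr2:360652-362514 on the reverse strand, ORC3 (YLL004W) chr12:141073-142923 on the forward strand and ORC4 (YPR162C) chr16:866715-868304 on the reverse strand. ORC5 (YNL261W) lies at chr14:155100-156539 on the forward strand, ORC6 (YHR118C) at chr8:344321-345628 on the reverse strand, and CDC6 (YJL194W) and TAH11 (YJR046W) on the forward strand of the same chromosome at chr10:69338-70879 and chr10:522048-523862. Each is 1 coding exon with no intron and overlaps no other annotated gene. In each, 100% of the 42-base windows, the length of the reads, occur once in the genome, so that reads were not shared with a near copy. This also holds for ORC1 and SIR3, which descend from a common ancestor by gene duplication. The closest neighbour is TOM71, 52 bases from ORC6 on the opposite strand, and the counting was strand-specific.

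The windows before 4 of these genes are shown because their transcripts moved most between the groups, CDC6, ORC1 and ORC3 upward in S phase and TAH11 upward in the bypass. Each holds 250 bases before the start codon and 50 bases from it on, 5′ to 3′ in the direction of the gene, read from the R64 reference sequence of strain S288C, whereas the cells were of the W303 background. The windows are chr10:69088-69387 for CDC6, chr13:141960-142259 for ORC1, chr12:140823-141122 for ORC3 and chr10:521798-522097 for TAH11, all on the forward strand. Capitals mark every match, on either strand, to MCB (ACGCGT, bound by MBF), SCB (CNCGAAA, bound by SBF), the pheromone response element of Ste12 (TGAAACA) and the early cell cycle box (TTNCCNNNNNNGGNAA), in which the Mcm1 core (CCNNNNNNGG) lies. The Mcm1 core alone is not in capitals, and of these 4 windows only that of CDC6 holds a match in capitals.
CDC6: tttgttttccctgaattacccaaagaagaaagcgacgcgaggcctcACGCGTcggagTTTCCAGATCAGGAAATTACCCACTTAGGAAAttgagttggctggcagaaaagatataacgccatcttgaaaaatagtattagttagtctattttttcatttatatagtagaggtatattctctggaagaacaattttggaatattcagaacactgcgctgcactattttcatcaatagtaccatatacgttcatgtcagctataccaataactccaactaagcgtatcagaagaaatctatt
ORC1: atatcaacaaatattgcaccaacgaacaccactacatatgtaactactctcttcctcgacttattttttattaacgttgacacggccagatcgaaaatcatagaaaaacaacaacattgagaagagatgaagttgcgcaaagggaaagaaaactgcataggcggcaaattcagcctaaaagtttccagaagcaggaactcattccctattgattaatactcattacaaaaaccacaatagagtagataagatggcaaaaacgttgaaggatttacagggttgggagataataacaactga
ORC3: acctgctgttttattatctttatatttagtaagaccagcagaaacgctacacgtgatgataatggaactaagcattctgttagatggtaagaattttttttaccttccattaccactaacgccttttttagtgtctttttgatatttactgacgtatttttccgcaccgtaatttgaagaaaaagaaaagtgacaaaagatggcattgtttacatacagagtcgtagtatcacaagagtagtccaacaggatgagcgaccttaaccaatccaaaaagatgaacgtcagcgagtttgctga
TAH11: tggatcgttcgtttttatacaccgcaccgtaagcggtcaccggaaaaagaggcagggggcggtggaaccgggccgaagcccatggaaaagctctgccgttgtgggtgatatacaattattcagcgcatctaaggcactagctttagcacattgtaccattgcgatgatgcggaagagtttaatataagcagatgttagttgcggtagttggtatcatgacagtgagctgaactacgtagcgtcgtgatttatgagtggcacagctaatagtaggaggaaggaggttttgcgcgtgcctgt

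The CDC6 window holds 1 MCB, which starts at position -204 from the start codon, and 2 early cell cycle boxes side by side at -193 and -177. They read TTTCCAGATCAGGAAA and TTACCCACTTAGGAAA. Of 6001 promoters of the same length, 3.07% held an MCB and 0.917% an early cell cycle box, and among the 8 members CDC6 was the 1 gene with either. The Mcm1 core occurred in 29.2% of all promoters and in 2 members, CDC6, where it lies inside the boxes, and TAH11, where it starts at -224 and -155. No member had a match to SCB or to the Ste12 motif, which 13.8% and 7.499% of all promoters hold. These matches describe the letters of the reference and do not show binding.

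The 8 transcripts covered a wide range of levels. In TPM, which divide the counts by gene length and so allow genes to be compared, TAH11 was the highest in every group and CDC6 the lowest. Wild-type G1 cells had 68.6 ± 8.17 TPM (SD, n = 4) of TAH11 and 5.63 ± 0.666 TPM of CDC6, the transcript of the loader that CDK marks for destruction. The ORC subunits lay between them, with ORC5 at 50.4 ± 4.54 TPM, ORC6 at 39.5 ± 2.32, ORC2 at 35.3 ± 1.39, ORC4 at 32.4 ± 1.60, ORC1 at 22.8 ± 1.97 and ORC3 at 18.6 ± 1.67. In this order the replicate ranges of ORC2 and ORC4 overlapped, as did those of ORC1 and ORC3, and all other neighbours were apart. CDC6 was higher than 12.2% of the genes of wild-type G1, and TAH11 than 59.2%. In bulk samples, fewer cells that express a gene and less of its RNA per cell cannot be told apart.

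The order of the mean levels was the same in both G1 groups and changed in S phase through ORC1. CDK/DDK bypass G1 cells had 81.7 ± 5.85 TPM of TAH11, then 44.0 ± 1.13 of ORC5, 41.96 ± 1.66 of ORC6 and 38.7 ± 1.45 of ORC2, whose ranges overlapped from one to the next. ORC4 followed at 29.1 ± 1.30, ORC1 at 18.8 ± 0.383, ORC3 at 14.8 ± 0.513 and CDC6 at 4.39 ± 0.777 TPM, each apart from its neighbours. In wild-type S cells ORC1 reached 41.7 ± 1.99 TPM and stood beside ORC5 at 43.7 ± 2.55, with overlapping ranges. Below them came ORC6 at 31.8 ± 1.501 and ORC2 at 31.4 ± 2.00, which overlapped, and then ORC4 at 24.9 ± 1.91 and ORC3 at 24.4 ± 0.420, which overlapped as well. TAH11, at 51.9 ± 1.55 TPM, and CDC6, at 9.88 ± 0.679 TPM, were still at the ends, but the distance between them had become smaller. TPM are shares of a sample's transcripts and follow changes of other abundant genes, so the tests between groups were done on TMM-normalized counts.

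**Figure D1:**
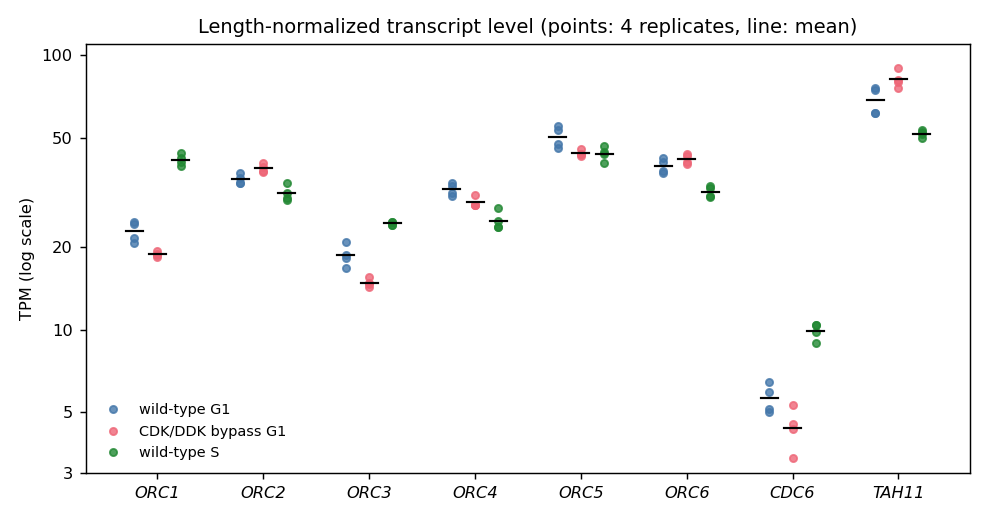
Length-normalized level in TPM (log axis) of each member in the 4 replicates (points) and their mean (line) of wild-type G1, CDK/DDK bypass G1 and wild-type S cells. TAH11 is highest and CDC6 lowest in each group, and ORC1 reaches the level of ORC5 in wild-type S.

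Compared with arrested wild-type G1 cells, the S cells, which were also of another strain and time course, had 3 members higher and 3 lower. ORC1 rose 2.04-fold, CDC6 1.96-fold and ORC3 1.46-fold, whereas TAH11, ORC4 and ORC6 fell by 0.24, 0.22 and 0.15 on the log2 scale, and ORC2 and ORC5 did not pass the test. Thus 6 of 8 members were called, that is, had a p-value below 0.1 in the quasi-likelihood test of edgeR after adjustment over all genes by Benjamini-Hochberg. Of all 5662 genes tested, 83.8% were called likewise, 40.4% of the 5662 as higher and 43.3% as lower. The median log2 fold change of the members was -0.03, and that of all genes -0.02. The ranges of the 4 replicates did not overlap in 5 members, against 73.9% of all genes. Among all genes 7.01% rose by more than ORC1, 8.001% by more than CDC6 and 21.3% by more than ORC3.

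Unscheduled replication in G1 went with smaller differences and, for ORC1, ORC3 and CDC6, with the opposite sign. Compared with wild-type G1, 7 of 8 members were called in CDK/DDK bypass G1, where 54.5% of all genes were called, 26.0% higher and 28.5% lower. ORC2 and TAH11 rose, by 0.13 and 0.25 on the log2 scale, and CDC6, ORC3, ORC1, ORC5 and ORC4 fell by 0.35, 0.33, 0.28, 0.20 and 0.16 under TMM normalization, the last 2 of which turned positive on the spike-in scale. The members had a median of -0.18 and all genes one of -0.02, and the replicate ranges were apart in 6 members and in 44.0% of all genes. None of these values exceeded 1.28-fold in either direction, and the median size over all genes was 0.18 on the log2 scale. When counts were summed within the similar replicates, 1 member was still called, ORC3, at a log2 fold change of -0.34 and an adjusted p-value of 0.0713 (2.76e-05 to 0.428 over its 19 alternatives), and over all genes the number called went from 3083 to 1477.

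Set directly against the bypass, S cells had more of 4 members and less of 3. This comparison shares its samples with the other comparisons, so its values stand beside theirs and add no independent measurement. CDC6 was 2.51-fold, ORC1 2.48-fold and ORC3 1.84-fold higher in S, ORC5 rose by 0.16 on the log2 scale, and TAH11, ORC6 and ORC2 fell by 0.49, 0.24 and 0.14. ORC4 did not pass the test. In all, 7 of 8 members were called. Of all genes, 85.1% were called, 41.5% of all genes as higher and 43.6% as lower. The replicate ranges of 6 members were apart, against 81.7% of all genes. The median was 0.05 for the members and -0.02 for all genes.

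The scale set by the ERCC spike-in, a mix of synthetic RNAs added to the same mass of total RNA, moved all genes together. With spike-in totals the median of all genes was 0.20 for bypass against wild-type G1, 0.05 for S against wild-type G1 and -0.16 for S against bypass. A shift common to all genes leaves values relative to that median nearly unchanged by arithmetic, so their likeness is no test of the scaling. Relative to the median, ORC1 was at -0.26 in the bypass with either scaling, CDC6 at -0.34 and -0.33, and TAH11 at 0.27 and 0.28. On the spike-in scale itself, ORC2, ORC6 and TAH11 were called higher in the bypass at 0.35, 0.30 and 0.47, no member was called lower, with ORC1, ORC3 and CDC6 at -0.06, -0.11 and -0.14, and the values of ORC4 and ORC5 turned positive at 0.06 and 0.02. The 3 rises in S phase over wild-type G1 stayed called on this scale, at 1.11 for ORC1, 1.05 for CDC6 and 0.62 for ORC3, and no other member was called. Over all genes 2786 were called in the bypass and 4330 in S with spike-in totals, each against wild-type G1, where TMM normalization gave 3083 and 4743.

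**Figure D2:**
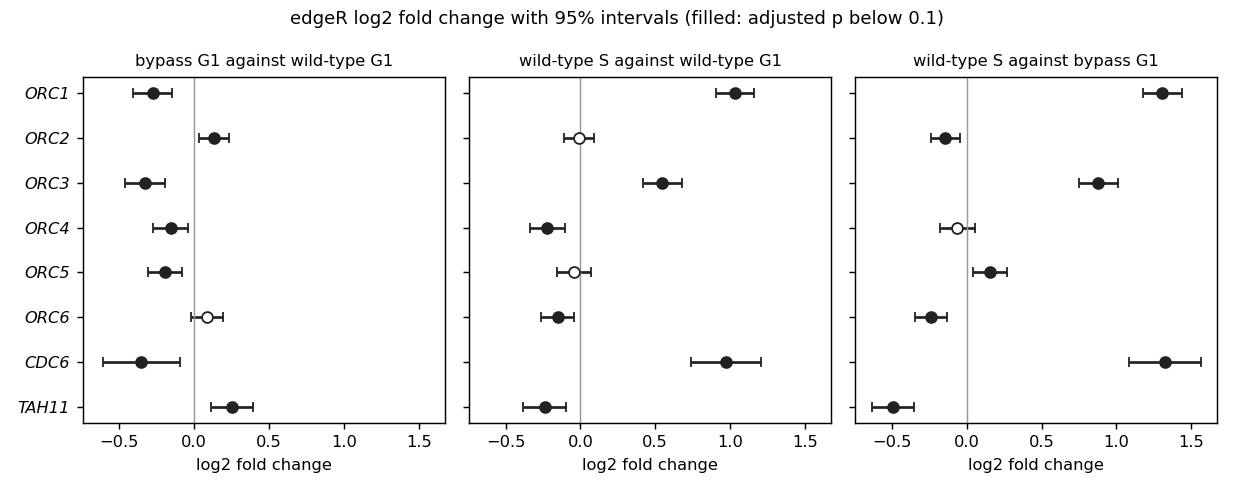
Log2 fold change of each member in the 3 comparisons (edgeR, TMM normalization). Bars are 95% intervals by the normal distribution, 1.96 standard errors to each side. Filled points passed an adjusted p-value of 0.1. ORC1, ORC3 and CDC6 lie left of 0 in the bypass, between -0.35 and -0.28, and right of 0 in S, between 0.55 and 1.03 against wild-type G1.

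Orc1 is the largest subunit, binds and hydrolyses ATP, and carries a domain that binds nucleosomes. Its transcript stood at 65.1, 66.1, 54.0 and 56.9 CPM in replicates 1 to 4 of wild-type G1. The bypass replicates had 49.3, 51.4, 49.9 and 49.1 CPM. S phase replicates had 126.5, 131.5, 116.6 and 120.4 CPM. The 3 groups did not overlap, S being highest and the bypass lowest, and in wild-type G1 replicates 1 and 2 lay above replicates 3 and 4. The log2 fold change was 1.03 ± 0.0643 (SE, n = 4 per group, edgeR adjusted p = 6.23e-09) in S and -0.28 ± 0.0665 (adjusted p = 0.00446) in the bypass, each against wild-type G1. Within replicates 1 and 2 alone the bypass value was -0.37, and within replicates 3 and 4 alone -0.17. Leaving out single replicates gave 0.97 to 1.08 in S and -0.33 to -0.23 in the bypass, with no call lost. The bypass call was lost with counts summed within the similar replicates, at -0.28 (edgeR adjusted p = 0.109). It was also lost with spike-in totals, at -0.06 (adjusted p = 0.652, range 4.64e-06 to 0.652 over 19 alternatives).

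ORC3 encodes a core subunit with an ATPase-like fold that does not itself bind ATP. Wild-type G1 replicates had 33.8, 37.7, 32.0 and 29.9 CPM. In the bypass they had 26.3, 25.6, 26.2 and 27.8 CPM, and in S phase 50.0, 49.7, 47.7 and 47.7 CPM. As for ORC1, no groups overlapped, the S samples were highest and the bypass samples lowest, and replicates 1 and 2 were the higher pair of wild-type G1. ORC3 rose in S by 0.55 ± 0.0655 on the log2 scale (edgeR adjusted p = 4.39e-06) and was at -0.33 ± 0.0680 in the bypass (adjusted p = 0.00165). The bypass value was -0.45 within replicates 1 and 2 and -0.20 within replicates 3 and 4. Against the bypass, S was higher by 0.88 ± 0.0669 (adjusted p = 4.20e-08).

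Orc2, also part of the core of the ring, is a substrate of CDK. The wild-type G1 replicates had 64.9, 62.5, 65.9 and 61.0 CPM of its transcript. Those of the bypass had 69.8, 68.2, 67.5 and 73.4 CPM, and those of S phase 61.5, 63.4, 59.4 and 68.2 CPM. The bypass lay just above wild-type G1 in all replicates, while the S samples spanned the wild-type G1 samples. ORC2 rose by 0.13 ± 0.0501 in the bypass (edgeR adjusted p = 0.0448), but the call was lost without bypass replicate 4 (0.11, adjusted p = 0.135) and without wild-type G1 replicate 4 (0.11, adjusted p = 0.104), in a range of 0.00942 to 0.187 over 19 alternatives. In S the value was -0.01 with an interval of -0.11 to 0.09 (adjusted p = 0.865), and its sign turned with the scaling, to 0.07 with spike-in totals. Among all genes 98.8% moved further than ORC2 between wild-type G1 and S.

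Orc4 and Orc5 are ATPase-fold subunits of the ring, and the yeast form of Orc4 reads origin DNA through an inserted helix. ORC4 stood at 47.8, 48.8, 51.6 and 51.1 CPM in wild-type G1. The bypass had 47.3, 43.7, 43.8 and 43.9 CPM, and S phase 43.2, 47.65, 40.3 and 40.4 CPM. Both other groups lay below wild-type G1, bypass replicate 1 and S replicate 2 coming nearest to it. ORC4 was at -0.16 ± 0.0591 in the bypass (edgeR adjusted p = 0.0435) and at -0.22 ± 0.0597 in S (adjusted p = 0.00413). Within replicates 1 and 2 alone neither was called, at -0.07 (adjusted p = 0.408) and -0.08 (adjusted p = 0.342), in ranges of 0.00414 to 0.678 and 2.30e-05 to 0.342 over the alternatives. Between S and the bypass the value was -0.06, with an interval of -0.18 to 0.06. It was called under 3 of 19 alternatives, without S replicate 2 at -0.11 (adjusted p = 0.0706, range 0.0706 to 0.935), with library totals at -0.12 and with spike-in totals at -0.20.

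ORC5 had the highest mean TPM of the ORC transcripts in each group, although its range overlapped that of ORC6 in the bypass and that of ORC1 in S. Its values in wild-type G1 were 64.5, 66.6, 73.3 and 76.2 CPM. The bypass had 63.0, 60.8, 60.7 and 60.1 CPM, and S phase 68.7, 63.0, 68.7 and 71.9 CPM. The bypass samples lay below all wild-type G1 samples, and S samples overlapped them. The difference from wild-type G1 was -0.20 ± 0.0582 in the bypass (edgeR adjusted p = 0.0144) and -0.04 in S, with an interval of -0.15 to 0.07 (adjusted p = 0.532). Here replicates 3 and 4 were the higher pair of wild-type G1. The bypass value was accordingly -0.07 within replicates 1 and 2 (adjusted p = 0.357, range 3.30e-05 to 0.888 over 19 alternatives) and -0.31 within replicates 3 and 4. S lay above the bypass by 0.16 ± 0.0586 (adjusted p = 0.0246), a difference that shrank to 0.02 with spike-in totals (adjusted p = 0.879, range 0.00117 to 0.879).

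Orc6 is not needed for origin binding in yeast but takes part in bringing in Cdt1, and it is a CDK substrate with a docking site for the S-phase cyclin Clb5. Wild-type G1 replicates had 52.1, 48.3, 46.5 and 53.1 CPM. Bypass replicates had 54.9, 54.4, 51.0 and 51.9 CPM, and S replicates 43.6, 46.6, 43.0 and 46.8 CPM. The bypass overlapped wild-type G1, and S lay below both groups except where its highest replicates met the lowest of wild-type G1. In the bypass the value was 0.08, with an interval of -0.02 to 0.19 (edgeR adjusted p = 0.223). In S it was -0.15 ± 0.0553 (adjusted p = 0.0220) against wild-type G1 and -0.24 ± 0.0552 (adjusted p = 0.00137) against the bypass. The former was not called with spike-in totals, at -0.07 (adjusted p = 0.535, range 0.00231 to 0.535).

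Cdc6, the loader that CDK removes, had the scarcest transcript. Wild-type G1 replicates had 82, 76, 98 and 84 counts, or 7.75, 7.55, 9.42 and 8.80 CPM. Bypass replicates had 70, 46, 78 and 68 counts, or 6.69, 5.08, 7.90 and 6.48 CPM. S replicates had 145, 137, 164 and 153 counts, or 16.6, 17.4, 17.1 and 14.8 CPM. All S samples were above all G1 samples, whereas the ranges of bypass and wild-type G1 overlapped through bypass replicate 3. CDC6 rose by 0.97 ± 0.118 in S over wild-type G1 (edgeR adjusted p = 5.18e-06) and by 1.33 ± 0.123 over the bypass (adjusted p = 3.08e-07), and both were called under all 19 alternatives. With so few counts its standard errors were the largest of the members. The value of the bypass against wild-type G1 was -0.35 ± 0.131 (adjusted p = 0.0410), and it was not called without bypass replicate 2 (-0.26, adjusted p = 0.111) or without wild-type G1 replicate 3 (-0.30, adjusted p = 0.101), in a range of 0.0168 to 0.527 over the alternatives.

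Cdt1, encoded by TAH11, escorts the Mcm helicase to ORC and Cdc6. Its transcript stood at 109.2, 108.9, 131.7 and 130.8 CPM in wild-type G1. The bypass had 141.8, 133.4, 157.8 and 140.2 CPM, and S phase 106.4, 98.2, 102.4 and 100.2 CPM. The bypass was above and S below all wild-type G1 samples, of which replicates 1 and 2 lay close to S. TAH11 rose by 0.25 ± 0.0717 in the bypass (edgeR adjusted p = 0.0113) and was at -0.24 ± 0.0727 in S (adjusted p = 0.00847). Of the 2 members called higher in the bypass, TAH11 had the larger rise. That rise was 0.35 within replicates 1 and 2 and 0.18 within replicates 3 and 4. With counts summed within the similar replicates it was not called, at 0.25 (edgeR adjusted p = 0.140, range 1.13e-07 to 0.140 over 19 alternatives). In S the value was -0.08 within replicates 1 and 2 (adjusted p = 0.196, range 2.56e-08 to 0.196 over 19 alternatives), and from the bypass to S it fell by 0.49 ± 0.0725 (adjusted p = 2.80e-05), called under all of the alternatives.

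**Figure D3:**
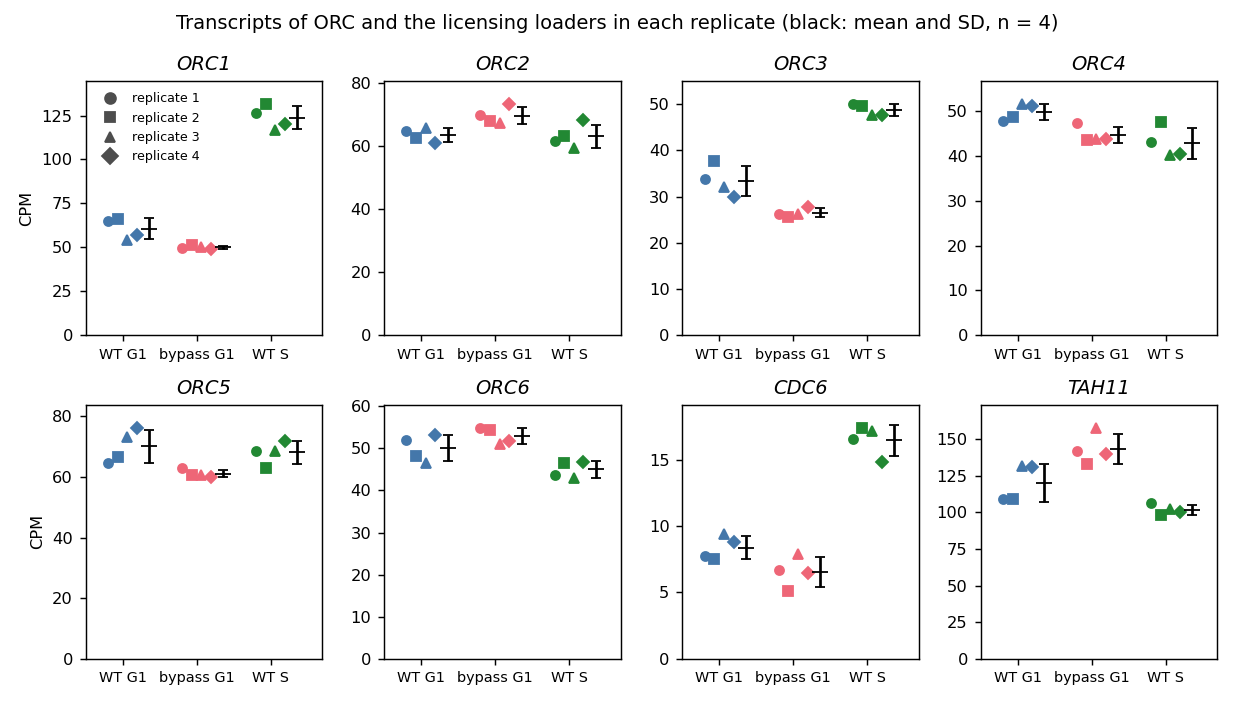
CPM (TMM-normalized counts, axes from 0) of each member by group, with 1 marker shape per replicate number and, in black, the mean and SD of 4 replicates. ORC1, ORC3 and CDC6 are highest in wild-type S, at means of 123.7, 48.8 and 16.5 CPM, and TAH11 is highest in the bypass, at a mean of 143.3 CPM.

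Within a sample, ratios of TPM do not depend on the scaling between libraries, and they show how the make-up of the licensing transcripts differed. ORC1 per ORC2 was 0.647 ± 0.0694 (SD, n = 4) in wild-type G1, 0.487 ± 0.0258 in the bypass and 1.33 ± 0.0962 in S. ORC3 per ORC2 was 0.528 ± 0.0543, 0.383 ± 0.00614 and 0.780 ± 0.0520 in the same order. For each of these ratios the replicates of the 3 groups were apart, so that the subunits of a complex that holds 1 copy of each did not have transcripts in a fixed proportion. The highest ORC transcript exceeded the lowest by 2.73-fold ± 0.456 in wild-type G1, 2.97 ± 0.139 in the bypass and 1.85 ± 0.0933 in S. Their sum was 199.1 ± 3.56, 187.4 ± 4.11 and 197.9 ± 5.02 TPM. Unlike the ratios, this sum is a share of all transcripts and depends on the scaling, so no direction is given for it.

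Both loaders moved in opposite directions. There were 12.2 ± 0.340 TAH11 transcripts per CDC6 transcript in wild-type G1, 18.9 ± 2.35 in the bypass and 5.27 ± 0.421 in S. The single values were 11.9 to 12.6, 17.0 to 22.3 and 4.79 to 5.75, with wide gaps between the groups. CDC6 per ORC2 was 0.159 ± 0.0164 in wild-type G1, 0.114 ± 0.0215 in the bypass and 0.317 ± 0.0379 in S, with no overlap between the groups. ORC2 itself was called higher in the bypass, and per ORC6 the values of CDC6 overlapped between the G1 groups, at 0.126 to 0.172 in wild-type G1 and 0.0792 to 0.132 in the bypass, while S had 0.269 to 0.339. TAH11 per ORC2 overlapped between the G1 groups as well, at 1.73 to 2.20 in wild-type G1 and 1.96 to 2.40 in the bypass.

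**Figure D4:**
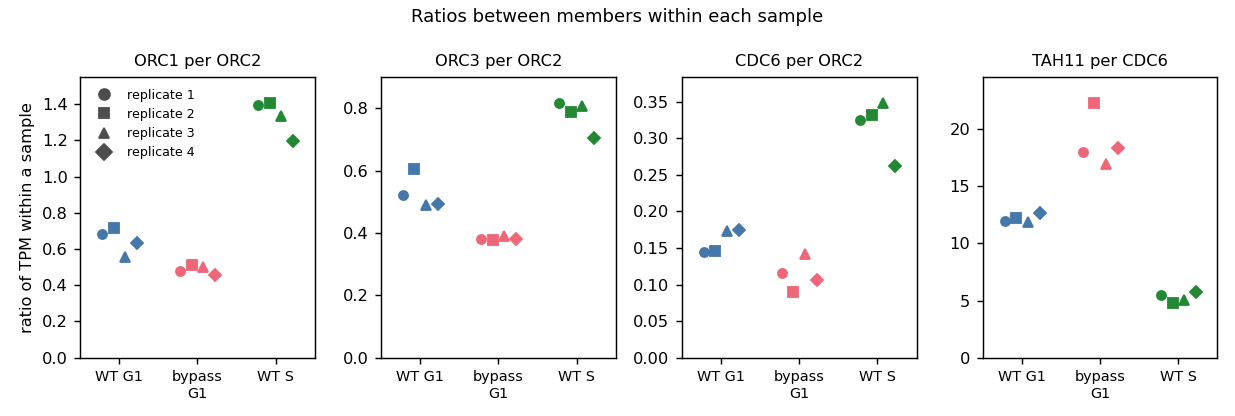
Ratio of TPM between pairs of members within each sample (axes from 0), by group, with 1 marker shape per replicate number. ORC1, ORC3 and CDC6 per ORC2 are highest in wild-type S, and TAH11 per CDC6 falls from means of 18.9 in the bypass and 12.2 in wild-type G1 to 5.27 in wild-type S.

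The helicase that these proteins load behaved unlike CDC6 and ORC1 in S phase. All 6 of the genes MCM2 to MCM7 fell from wild-type G1 to S, as did 43.3% of all genes, with a median log2 fold change of -1.56, where that of all genes was -0.02. MCM5, the lowest of them, fell by 2.13, from 119.6 to 27.3 CPM, and MCM6 fell by 0.51, the least. In the bypass 2 of the 6 were higher and none lower than in wild-type G1, with a median of 0.07, where 26.0% of all genes were higher and 28.5% lower. The largest value there was that of MCM3, at 0.21 ± 0.0717 (edgeR adjusted p = 0.0284), close to that of TAH11.

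CDC6 is known to be transcribed as cells leave mitosis, through early cell cycle boxes bound by Mcm1. Of 5 genes with early cell cycle boxes, CLN3, SWI4, MCM3, MCM5 and MCM7, 4 fell in S and 1 rose, against 43.3% and 40.4% of all genes, with a median of -1.90. The list shares its 3 MCM genes with the helicase. The riser was SWI4, the DNA-binding subunit of SBF, at 0.76 ± 0.0892 (adjusted p = 3.62e-06), and CLN3, the most upstream G1 cyclin, fell by 1.90. CDC6, at 0.97, thus stood with SWI4, on the other side from the genes that fell. In the bypass 1 gene of the list was higher and 1 lower, against 26.0% and 28.5% of all genes, with a median of 0.07, whereas CDC6 was at -0.35.

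The genes that act on the members after licensing were also followed. Of the kinase subunit CDC28, its partner CKS1 and the B-type cyclins CLB1 to CLB6, 5 of 8 were higher and 1 lower in S than in wild-type G1, with a median of 0.85. That is no larger a share than the 83.8% called over all genes. CLB6 rose most, by 6.06, from 0.398 to 27.1 CPM, and CLB5 by 2.08, both being S-phase cyclins. The mitotic cyclins CLB1, CLB3 and CLB2 rose too, by 4.89, 0.98 and 0.73, with CLB1 going from 2.90 to 87.1 CPM. CDC28 fell by 0.62. In the bypass, where 54.5% of all genes were called, 1 of the 8 was higher and 2 lower, with CLB5 at 0.25 ± 0.0915 (edgeR adjusted p = 0.0387) and CDC28 at -0.31 ± 0.0498 (adjusted p = 0.000260). Of 5 genes of the SCF-Cdc4 ligase, 3 were lower and none higher in S, where 43.3% of all genes were lower, and CDC53 fell by 0.54, the most. In the bypass 2 were higher and 1 lower, CDC34 at 0.28 ± 0.0420 (adjusted p = 0.000155) and SKP1 at -0.23 ± 0.0388 (adjusted p = 0.000358).

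Finally, ORC1 was set beside its relative SIR3 and other genes tied to ORC. SIR3, which encodes a silencing protein derived from an Orc1 ancestor, was lower in both other groups than in wild-type G1, at -0.24 ± 0.0499 in the bypass (edgeR adjusted p = 0.00198) and -0.22 ± 0.0501 in S (adjusted p = 0.00114). Its relative ORC1 shared the lower value in the bypass, at -0.28, but not that in S, at 1.03. SIR1, which binds Orc1 at silencers, was at -0.43 in the bypass and -0.34 in S, both called. ABF1, a factor that binds near many origins and promoters, rose by 1.25 in S and was at 0.02 in the bypass (adjusted p = 0.870). Of these genes and NOC3, IPI1 and IPI3, which take part in ribosome assembly and have been linked to licensing, 3 of 6 were higher and 2 lower in S, and none higher and 3 lower in the bypass, with medians of 0.35 and -0.19. Over all genes 83.8% and 54.5% were called, so neither share stood apart from the background.

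**Figure D5:**
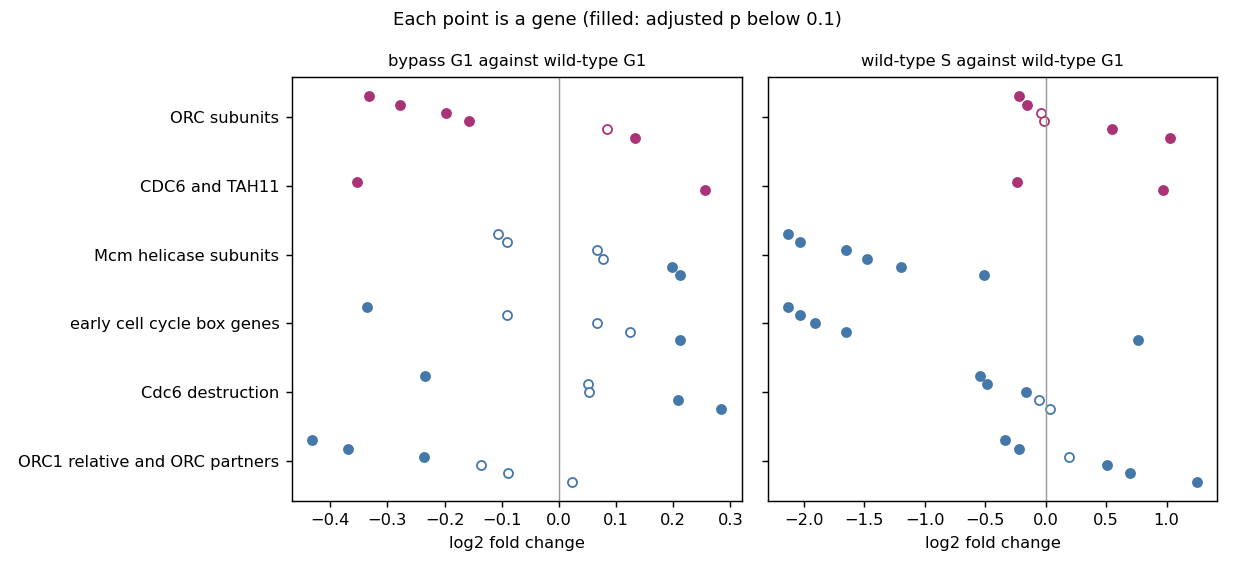
Log2 fold change of single genes (points; filled where the adjusted p-value was below 0.1) in the bypass and in wild-type S, each against wild-type G1, for the ORC subunits, CDC6 and TAH11 (purple) and for related lists (blue). In S the 6 Mcm helicase genes lie from -2.13 to -0.51, while CDC6 and ORC1 lie at 0.97 and 1.03; the x axes of the panels differ.

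For ORC1 and CDC6, whose group means differed by more than 1 on the log2 scale, the 3 genes with the most similar pattern over the 12 samples were found by Pearson's r of log2 CPM, as a description. They were THS1 (r = 0.998), SEO1 (0.997) and GIP3 (0.997) for ORC1, and ERD1 (0.982), SKI8 (0.979) and PDP3 (0.978) for CDC6. The 12 points share 3 groups, and most of the likeness is the difference between them. THS1, which encodes threonyl-tRNA synthetase, stood at 626.3, 691.6 and 1058 CPM in bypass G1, wild-type G1 and S. Within the groups its r with ORC1 was -0.21, 0.97 and 0.98. ERD1 stood at 14.5, 18.6 and 46.3 CPM, with r to CDC6 within the groups of 0.81, 0.79 and 0.06. Each r within a group rests on 4 samples that fall into similar pairs. A difference between the pairs can therefore make up much of it.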

How the data were processed

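The 8 genes were taken by name from the count tables, and the genes and lists were chosen with earlier results of these data known. Per the labels and the methods of the study, paired reads of 42 bases were mapped to sacCer3 with STAR 2.7.10a and counted per gene and by strand with HTSeq 2.0.1, reads with more than one place being left out, and the authors deposited raw counts with no normalization. Each file lists 6412 genes and other features and 92 ERCC spike-ins. The 5 summary lines, 9.28 to 11.5% of all entries, were left out. Counts were tested with edgeR 4.0.16 in R 4.3.3 (filterByExpr with a minimum count of 10, which kept 5662 genes, TMM, glmQLFit and glmQLFTest on all 12 samples with the group as the single term). Benjamini-Hochberg adjustment was over all 5662 genes, and genes were called at an adjusted p-value below 0.1. The standard error is the size of the log2 fold change over the square root of F, and intervals are 1.96 standard errors to each side. TPM used gene lengths of the R64 annotation, to which 6095 features with at least 99.8% of the counts were matched. Samples were grouped by their labels. Same-numbered replicates correlated at -0.0197 to 0.201 in their deviations from the group means, and the main test did not pair them. The likeness of replicates 1 and 2, and of 3 and 4, also ran across groups. Between the G1 groups the correlations were 0.0576 to 0.201 within the same pair and -0.215 to -0.0521 across pairs. Between wild-type G1 and S they were 0.0545 to 0.188 and -0.168 to -0.0341. Bypass G1 and S showed no such split, at -0.0512 to 0.0607. The replicate block named next takes up only differences between replicate numbers that are equal in all groups. The pairs differed far more in wild-type G1 than in the bypass, so the block covers this structure only in part. Alternatives were RLE and library totals, spike-in totals, DESeq2 1.42.0, no filter, a threshold of 0.05, the groups compared alone, a replicate block, counts summed within similar replicates, each pair alone, and each replicate left out. Named genes were the members, the induced genes, the largest rise or fall of a list, and genes that a result on a member turns on. CLB1, CLB2, CLB3, CLB5, CDC28, CLN3, MCM6, SIR1, SKP1, FUS1, RNR1 and GAL1 were named after their values were seen. The test was checked on simulated counts of independent replicates. These lack the likeness within pairs of replicates, so the check does not cover its effect. Protein sequences were not used here, and 1 motif and 1 gene list are not reported here.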

Additional observations from a re-analysis of the deposited data

Results flagged for a closer look

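Of 24 sets of 4 replicates, 8 members in 3 groups, 1 had a replicate far from the others by Dixon's test, where chance gives about 1.2. It was ORC4 in the bypass, where replicate 1 had 47.3 CPM and the others 43.7 to 43.9. Replicate 1 lay just below the lowest wild-type G1 sample, at 47.8 CPM, and without it the other bypass samples were further from wild-type G1.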

How the results depend on the processing

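Of the log2 fold changes of the members under the alternatives, 415 kept their direction and side of the threshold. Another 24 kept their direction but were no longer called, 4 kept it and became called, and 13 changed sign. Those that changed sign include ORC4 and ORC5 in the bypass with spike-in totals, which also lost their calls. The count of members called kept within 1.5 times of its value in 54 cases. It was lower in 3: for bypass against wild-type G1 it was 3 with spike-in totals and 1 with counts summed within similar replicates (2786 and 1477 of all genes, against 3083), and for S against wild-type G1 it was 3 with spike-in totals (4330 of all genes, against 4743). For S against wild-type G1, ORC2 was at 0.0198 with RLE, 0.020 with DESeq2, 0.0686 with spike-in totals and 0.0067 within replicates 3 and 4, and ORC5 at 0.0362 with spike-in totals and 0.0239 within replicates 1 and 2. For bypass against wild-type G1, ORC4 and ORC5, called lower at -0.16 and -0.20, were at 0.0579 and 0.0195 with spike-in totals. With each replicate left out, ORC2 ranged from -0.0493 to 0.0198 and ORC5 from -0.0784 to 0.0015 in S against wild-type G1. Spike-in totals shift all genes alike, by the medians given above, and the cause of the other sign changes was not tested. With the replicate number as a block, 7, 6 and 7 members were called in the 3 comparisons and no member's call changed. Same-numbered replicates correlated at 0.0576 to 0.201 between the G1 groups and at 0.0734 to 0.143 between wild-type G1 and S. The 48 TPM values kept within the spread of their replicates with uniquely mappable lengths or protein-coding genes alone, and the 5 motif counts did not change with 250 bases alone. CDC6, at 46 to 164 counts, limits the precision of its fold changes most.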
